A study of Rattus norvegicus with 2 samples.

Results

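The genes described here are the metalloproteinases of the matrix metalloproteinase (Mmp), Adam, Adamts and Adamtsl families and their tissue inhibitors (Timp), measured in the lumbar spinal cord (SC) of rats after injury of the sciatic nerve. They were chosen by name, as the gene symbols that consist of Mmp, Adam, Adamts, Adamtsl or Timp followed by a number and, in some cases, a further letter or digit. Of the 18171 genes on the array with a name of their own, 68 were members: 4 Timp genes, 20 Mmp genes, 25 Adam genes and 19 Adamts and Adamtsl genes. Each member was measured by a single probe set, so no choice between probe sets was needed. Other genes of these families were not analysed here.

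The animals were adult male Sprague-Dawley rats that weighed 180 to 200 g. In the chronic constriction injury (CCI) group, which the labels call the model, the left sciatic nerve was tied loosely with 4 ligatures at mid-thigh, and Sham rats had the nerve exposed without any tie. Segments L4 to L6 of the SC were taken on day 10 after surgery. RNA of 3 rats in each group was mixed and hybridised to 1 Affymetrix Rat Gene 2.0 ST array, so the data consist of 2 arrays. Values are log2 expression after robust multi-array average (RMA), a method that removes background, gives the arrays the same intensity distribution and combines the probes of a probe set. Since each group had a single array, replicate error could not be estimated and nothing was tested, and every difference below compares 2 mixtures of RNA. In tissue RNA, fewer cells of a type cannot be told apart from less RNA per cell.

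Metalloproteinases are zinc enzymes that cut proteins outside the cell or at its surface. Mmp enzymes are made as inactive proenzymes and digest matrix proteins, cytokines and other proteases. Adam enzymes are anchored in the membrane and release the outer parts of cytokines, receptors and adhesion molecules, while Adamts enzymes are secreted and act mainly on proteoglycans and collagens. The Timp proteins close the active site of these enzymes and set how much of their activity reaches the tissue. In the injured nervous system this balance is known for its part in the opening of the blood barrier, the release of cytokines and the remodelling of the matrix around neurons.

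Over all 68 members, the families did not shift in a common direction. The value in CCI was higher than that in Sham for 35 members and lower for 33, with a median difference of 0.00 on the log2 scale, against -0.01 over all 18171 genes. Of all genes, 47.6% were higher in CCI and 52.4% lower. The differences stayed within 1.2-fold for 52 members (76.5%), and for 75.4% of all genes. The study's cut-off of 1.5-fold, taken here without its P value, was passed by 3 members (4.41%) and by 506 of all genes (2.78%). Timp1 and, at the cut-off itself, Mmp19 were on the higher side, as were 1.64% of all genes, and Adamts3 was on the lower side, as were 1.14%. Adamts3 is counted by its measured values; its CCI value was below background, and the bound of 1.47-fold that this leaves does not reach the cut-off. Among the members only Timp1 was past 2-fold, as were 0.314% of all genes (0.242% higher and 0.0715% lower). The members' share rests on 3 genes, so nothing particular to the families is read from it.

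**Figure D1:**
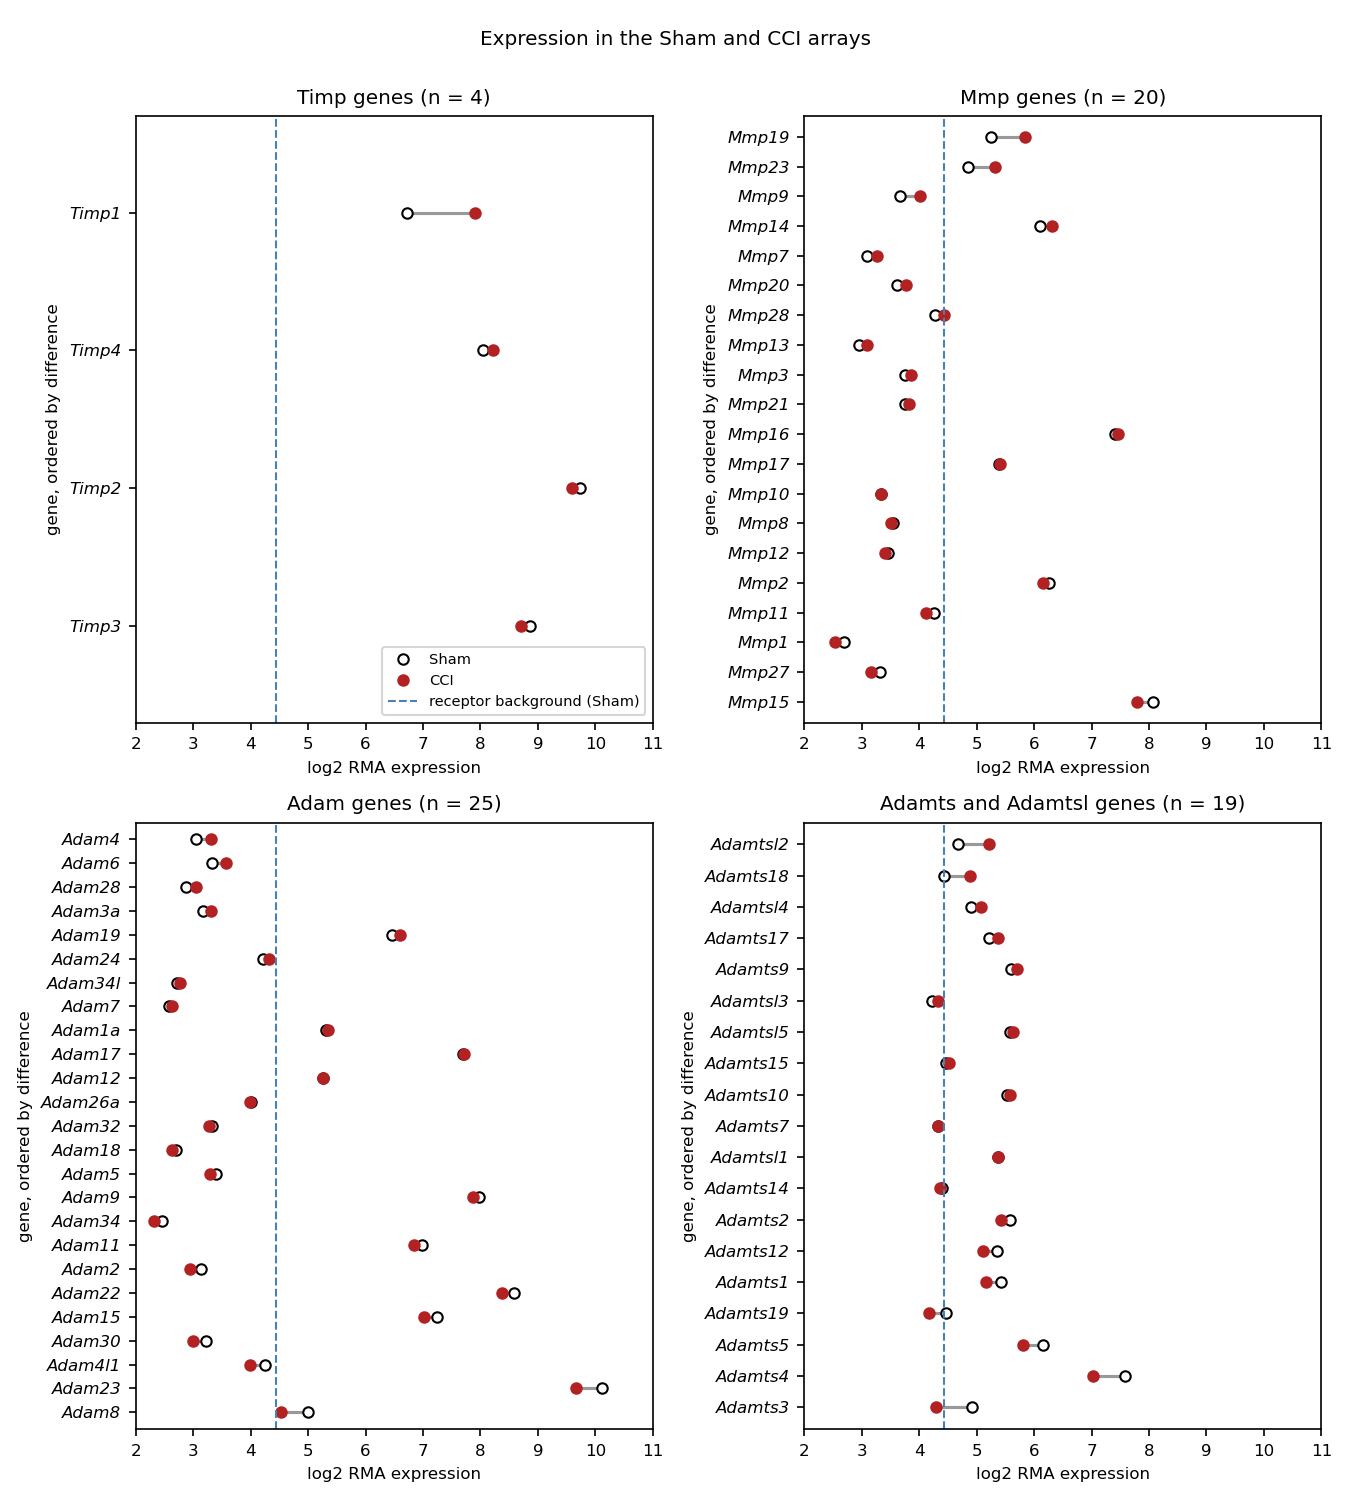
Log2 RMA expression (x axis) of each member gene in the Sham array (open circles) and the CCI array (filled circles), 1 value per array, ordered by difference within a family. Timp1 shows the widest gap, most other pairs of circles touch or overlap, and many Mmp and Adam genes lie left of the dashed line, the receptor background level of the Sham array at 4.44.

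Not every member gave a clear signal. A rough background level was set in each array at the 95th percentile of 1344 genes for odorant and vomeronasal receptors, which act in the nose, and lay at 4.44 in Sham and 4.36 in CCI. Of these receptor genes 4.76% were themselves past 1.5-fold. By this level 34 members were above background in both arrays, 4 in 1 array and 30 in neither. Of the 30, 12 were Mmp genes, 15 Adam genes and 3 Adamts or Adamtsl genes. For these, values are given without a fold. All 3 members past 1.5-fold were among the 38 with a signal in at least 1 array (7.89%), and of the 13107 genes with such a signal 2.82% were past it. Adamts3 was among the 38 through its Sham value alone, and its bound of 1.47-fold does not reach the cut-off. The share of 7.89% is therefore not read as a result about the families. Levels of different genes are not compared, because each probe set has its own probes.

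The inhibitors held the largest difference of all members. Timp1, a secreted inhibitor of most Mmp enzymes that is known as an injury and acute phase gene, was at 6.72 in Sham and 7.90 in CCI (probe set 17875665), a 2.27-fold higher level and a log2 difference of 1.18. It was the 25th highest of 18171 differences, and only 2 of the 500 genes with the closest mean level had a higher one. The SD of the differences among those 500 genes was 0.23. The other inhibitors differed far less and in both directions. Timp4, an inhibitor found in heart and brain, was at 8.04 in Sham and 8.22 in CCI, 1.13-fold higher. Timp2, which inhibits Mmp2 and also helps to activate its proenzyme, was at 9.74 and 9.59, 1.11-fold lower. Timp3, which binds to the matrix and also inhibits Adam17 and the proteoglycan-cutting Adamts enzymes, was at 8.87 and 8.70, 1.12-fold lower. The Timp family thus held 1 gene with a clear gap between the arrays and 3 with values close together, and its median difference was 0.02.

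In the rat genome, 3 of the 4 inhibitor genes lie inside a synapsin gene. By the RefSeq gene table of the GRCr8 assembly, Timp1 lies within Syn1, Timp4 within Syn2 and Timp3 within Syn3, whereas Timp2 lies within no other protein-coding gene. Synapsins coat synaptic vesicles in neurons. The host genes were all lower in CCI: Syn1 was at 9.84 in Sham and 9.62 in CCI, Syn2 at 9.29 and 9.09, and Syn3 at 8.36 and 7.93. Timp1 and Timp4 were thus higher in the CCI array while their hosts were lower, whereas Timp3 and its host Syn3 were both lower. Timp1 lies on the opposite strand to Syn1, and Timp4 on the opposite strand to Syn2.

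The promoters of the inhibitors are shown because 1 of the 4 genes differed past the threshold. The sequences are the 250 bases before the start of each gene in the RefSeq promoter table (GRCr8, minus strand in each case), written 5′ to 3′ along the gene. Capitals mark 3 kinds of short motif found on either strand, the AP-1-like TGAGTAA, the Ets-like AGGAAG and the GC box GGGCGG, or their reverse complements. The AP-1 consensus TGANTCA and the TATA box TATAAA were also searched and were in none of the 4 windows.
Timp1 (chrX:3771123-3771372): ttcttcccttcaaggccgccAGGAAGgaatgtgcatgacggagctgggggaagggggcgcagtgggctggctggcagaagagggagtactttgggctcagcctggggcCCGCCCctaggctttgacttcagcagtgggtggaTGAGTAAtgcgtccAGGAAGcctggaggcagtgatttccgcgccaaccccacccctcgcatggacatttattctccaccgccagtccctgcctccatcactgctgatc
Timp2 (chr10:104089215-104089464): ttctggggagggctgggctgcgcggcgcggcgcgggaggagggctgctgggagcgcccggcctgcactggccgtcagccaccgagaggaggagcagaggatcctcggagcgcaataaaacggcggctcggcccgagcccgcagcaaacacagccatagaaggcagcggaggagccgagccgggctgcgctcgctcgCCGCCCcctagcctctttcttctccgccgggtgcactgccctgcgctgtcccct
Timp3 (chr7:19459559-19459808): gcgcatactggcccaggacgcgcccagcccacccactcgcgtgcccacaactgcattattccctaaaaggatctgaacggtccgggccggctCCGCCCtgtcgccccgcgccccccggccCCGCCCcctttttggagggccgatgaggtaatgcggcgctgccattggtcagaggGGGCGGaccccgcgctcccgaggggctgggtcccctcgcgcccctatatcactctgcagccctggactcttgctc
Timp4 (chr4:149985205-149985454): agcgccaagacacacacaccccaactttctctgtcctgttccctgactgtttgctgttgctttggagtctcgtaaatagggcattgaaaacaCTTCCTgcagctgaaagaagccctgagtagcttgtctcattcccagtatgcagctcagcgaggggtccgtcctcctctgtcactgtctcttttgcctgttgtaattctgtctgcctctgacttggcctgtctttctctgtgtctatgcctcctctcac

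Counted back from the start, with -1 as the last base printed, TGAGTAA lies at -108 to -102 of Timp1, with AGGAAG at -94 to -89 and again at -230 to -225. TGAGTAA occurred in 2.38% of all 33469 promoter windows in the table and, among the members, in the windows of Timp1 and Mmp3 only. The motifs were a short list picked by hand, with TGAGTAA put beside the AP-1 consensus. Its presence in Timp1 and not in the other inhibitors therefore tells nothing about the difference of Timp1. AGGAAG and GGGCGG are common, present in 29.5% and 30.5% of all windows. Timp2 and Timp3 hold GGGCGG and neither of the other motifs shown, and Timp4 holds AGGAAG alone. The share of G and C was 61.2% in Timp1, 72.0% in Timp2, 69.6% in Timp3 and 50.8% in Timp4. These matches describe letters in a window and say nothing of binding.

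Among the secreted Mmp enzymes, the classical inflammatory ones were at background. All 3 collagenases (Mmp1, Mmp8 and Mmp13), which cut fibrillar collagen, all 5 genes of the group of stromelysins, matrilysin and macrophage elastase (Mmp3, Mmp7, Mmp10, Mmp11 and Mmp12), and the gelatinase Mmp9 did not exceed the receptor level in either array. The values of the collagenases ran from 2.70 to 3.55 in Sham and from 2.53 to 3.51 in CCI. Those of the stromelysin group ran from 3.09 to 4.26 and from 3.26 to 4.12. Mmp9, a gelatinase stored in neutrophil granules and released by injured tissue, was at 3.67 in Sham and 4.02 in CCI, higher in the CCI array but below the background level in both. Mmp12, the elastase of macrophages, was at 3.46 and 3.41, below background in both arrays, so no direction is read for it. The other gelatinase, Mmp2, was above background at 6.26 and 6.16, with the value in CCI 1.08-fold lower.

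Of these low genes, 7 sit in a run of 9 neighbouring Mmp genes on chromosome 8, in the order Mmp13, Mmp12, Mmp3, Mmp1, Mmp10, Mmp8, Mmp27, Mmp20 and Mmp7, with only 1 other protein-coding gene between them. The other 2 genes of the run are Mmp27 and Mmp20, the enamel protease. All 9 genes were at background in both arrays, with values between 2.53 and 3.87, 5 of them higher in CCI and 4 lower. The differences ran from -0.17 to 0.16.

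Their promoters are alike in a way that the choice by name did not use. Of the 9 genes, 7 held both an AP-1 motif TGANTCA and a TATA box TATAAA in the 250 bases before the start. Mmp8 held TATAAA alone, on the reverse strand, and Mmp27 held neither. To show the layout, the last 100 bases before the start are given for 4 of the genes with both motifs and for Mmp27 (RefSeq, GRCr8, plus strand), with the motifs in capitals.
Mmp13 (chr8:12782729-12782828): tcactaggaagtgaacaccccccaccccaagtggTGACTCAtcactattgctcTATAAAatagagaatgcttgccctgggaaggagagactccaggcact
Mmp12 (chr8:12866552-12866651): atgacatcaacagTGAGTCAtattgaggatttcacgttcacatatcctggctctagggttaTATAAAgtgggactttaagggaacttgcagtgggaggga
Mmp3 (chr8:12925181-12925280): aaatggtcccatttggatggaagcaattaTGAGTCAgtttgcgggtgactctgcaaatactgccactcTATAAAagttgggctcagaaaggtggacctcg
Mmp10 (chr8:12974607-12974706): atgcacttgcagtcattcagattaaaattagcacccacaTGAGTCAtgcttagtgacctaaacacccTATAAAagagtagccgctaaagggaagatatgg
Mmp27 (chr8:13030652-13030751): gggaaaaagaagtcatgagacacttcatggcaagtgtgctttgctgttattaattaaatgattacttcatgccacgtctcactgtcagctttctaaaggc

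The AP-1 motif lies at -66 to -60 in Mmp13, -87 to -81 in Mmp12, -71 to -65 in Mmp3 and -61 to -55 in Mmp10, in each case before the TATA box nearest the start, which begins at -47, -39, -32 and -33. The search covered both strands of 51 windows of 47 members, and no motif overlapped another kind. TGANTCA was present in 8 member windows (15.7%), against 6.34% of all windows, and 7 of the 8 belong to this run of genes, the other being Adam19. TATAAA was present in 18 member windows (35.3%), against 12.9% of all, and 8 of them are in the run. The 9 genes had no value above the background level in either pool, and the matches say nothing of binding.

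The remaining Mmp genes include those with a signal. Mmp19, a secreted protease of basement membrane proteins, was at 5.26 in Sham and 5.84 in CCI (probe set 17825764), 1.5-fold higher. Its log2 difference of 0.59 lay at the threshold itself and was the 298th highest of all genes. Among the 500 genes nearest in level, 5 had a higher difference. Mmp23, an Mmp that is anchored in the membrane through its prodomain, was at 4.86 and 5.33, 1.39-fold higher. Mmp28, or epilysin, was at 4.28 and 4.43, above background in CCI by too little to give a fold, and Mmp21 was at 3.76 and 3.82, below it in both.

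The 4 membrane-type Mmp genes among the members were all above background and differed little. Mmp14, which activates the proenzyme of Mmp2 together with Timp2, was at 6.10 in Sham and 6.31 in CCI, 1.15-fold higher. Mmp15 was at 8.06 and 7.79, a difference of -0.27. Mmp16, which is abundant in brain, was at 7.40 and 7.46, and Mmp17, held by a lipid anchor, was at 5.39 and 5.41. The 3 parts of the known activation complex, Mmp2, Mmp14 and Timp2, differed by 1.15-fold at most, with Mmp14 alone higher in CCI. The median difference of the 20 Mmp genes was 0.06, with 13 of 20 higher, but 12 of the 20 were at background in both arrays. A floor at the median level of all genes left only Mmp2, Mmp14, Mmp15 and Mmp16, with a median of -0.03. No direction is read for the family.

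**Figure D2:**
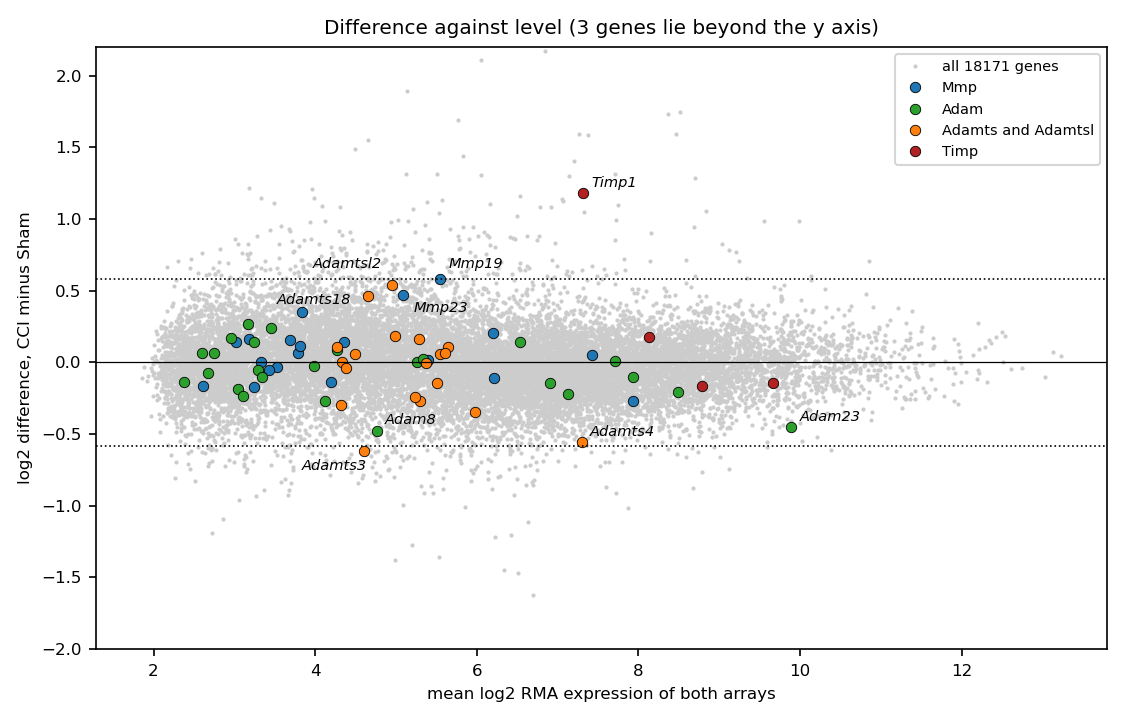
Log2 difference, CCI minus Sham (y axis), against the mean log2 expression of both arrays (x axis) for all 18171 genes (grey) and the members by family (colours), with dotted lines at 1.5-fold; 3 genes lie beyond the y axis. Timp1 at 1.18 stands outside the grey cloud at its level, Mmp19 lies on the upper line and Adamts3 just past the lower one.

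The 7 members that are catalytically active Adam genes of somatic tissue were close to equal in both arrays, except Adam8. Active Adam genes that are not among the members were not analysed. Adam17, which releases tumour necrosis factor from the cell surface, was at 7.70 in Sham and 7.71 in CCI. Adam9, at 7.98 and 7.88, and Adam15, at 7.24 and 7.02, had lower values in CCI by 1.07-fold and 1.16-fold. Adam19, with a role in neuregulin release and heart development in mice, was at 6.46 and 6.60, and Adam12 was at 5.27 in both. Adam8, a protease of myeloid cells, was 1.39-fold lower in CCI, at 5.0 and 4.52, close to background, and of the 500 genes nearest in level 18 had a lower difference. Its direction was opposite to that of the microglia and macrophage markers in the same arrays. Of these markers 11 of 11 measured were higher in CCI, against 47.6% of all genes. Adam28 was at background in both, at 2.87 and 3.04.

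All 3 neuronal Adam members were lower in CCI, as were 52.4% of all genes. Adam11, Adam22 and Adam23 have lost the catalytic site, and Adam22 and Adam23 serve at the synapse as receptors for the secreted Lgi proteins. Adam23 was at 10.12 in Sham and 9.67 in CCI, 1.37-fold lower, and among the 500 genes nearest in level only 7 had a lower difference. Adam22 was at 8.59 and 8.38, 1.16-fold lower, and Adam11 at 6.99 and 6.84, 1.11-fold lower. Of the 500 genes nearest in level to Adam22, 86 had a lower difference, and of the 500 nearest to Adam11, 167 did. The median over the 3 genes was -0.21, and none passed 1.5-fold. Of the ligands, Lgi3 was 1.46-fold lower in CCI, at 10.30 and 9.75, whereas Lgi1 was at 9.93 and 9.85, Lgi2 at 8.97 and 8.85, and Lgi4, the ligand of Schwann cells and other glia, at 8.05 and 8.11. Neuron markers had lower values in CCI as well, for all 7 (Snap25, Rbfox3, Syt1, Nefl, Nefm, Stmn2 and Eno2), at a median of -0.15 and a range from -0.37 to -0.05. Adam23 was further below Sham than any of these 7, and the part of neuron content in its difference was not tested.

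The 15 Adam genes known from testis and epididymis, where several act in sperm maturation and fertilisation, served as a view of the lower end of the array. Of them 14 were at background in both arrays and only Adam1a was above it, at 5.32 in Sham and 5.34 in CCI. The 14 were Adam2, Adam3a, Adam4, Adam4l1, Adam5, Adam6, Adam7, Adam18, Adam24, Adam26a, Adam30, Adam32, Adam34 and Adam34l, with Adam34 at 2.45 and 2.31 and Adam24 at 4.22 and 4.31 among them. The differences of all 15 ran from -0.27 to 0.27 with a median of -0.02, 7 higher and 8 lower. A run of 5 neighbouring genes on chromosome 16 holds Adam9 next to the testis genes Adam32, Adam5, Adam3a and Adam18; Adam9 was above background and the other 4 were not.

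The secreted Adamts genes held the largest lower values. Adamts4, the main aggrecanase together with Adamts5, cuts the lecticans, the large proteoglycans that fill the space around neurons and synapses. It was at 7.58 in Sham and 7.02 in CCI, 1.47-fold lower, and only 4 of the 500 genes nearest in level had a lower difference. Adamts5 was at 6.15 and 5.81, 1.27-fold lower. Adamts1, which also cuts lecticans and limits vessel growth, was at 5.43 and 5.16, a difference of -0.27. Adamts1 and Adamts5 are next to each other on chromosome 11. The other 2 genes of the lecticanase group were slightly higher, Adamts9 at 5.59 and 5.70 and Adamts15 at 4.46 and 4.52. The 5 genes had a median difference of -0.27, with none past 1.5-fold.

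Adamts3, which trims the aminoterminal end of procollagen and also cuts reelin, was at 4.92 in Sham and 4.29 in CCI (probe set 17688908), a log2 difference of -0.62 or 1.54-fold lower as measured. The CCI value was below background, and against the background level of that array the gene was at least 1.47-fold lower, short of the cut-off. Of the 500 genes nearest in level, 6 had a lower difference. Its relatives, the procollagen proteases Adamts2 and Adamts14, were at 5.57 and 5.43 and at 4.40 and 4.36, the latter at background in both. Of the 3 genes only Adamts2 was above background in both arrays, so no common direction is read for the group.

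The other Adamts genes went in both directions. Adamts18, just below background at 4.43 in Sham, was at 4.89 in CCI, which makes it at least 1.37-fold higher. Adamts17 was at 5.21 and 5.37 and Adamts10, which binds fibrillin microfibrils, at 5.52 and 5.58. Adamts12 was at 5.36 and 5.12, and Adamts19 at 4.47 and 4.17, at least 1.07-fold lower. Adamts7 was at background in both arrays, at 4.32 and 4.33. Of these 6 genes, 4 were higher and 2 lower.

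The Adamtsl genes encode secreted proteins that share the Adamts ancillary domains but have no protease domain. Adamtsl2, which binds fibrillin and latent transforming growth factor complexes, was at 4.68 in Sham and 5.22 in CCI, 1.46-fold higher and just under the threshold. Adamtsl4 was at 4.90 and 5.08, 1.14-fold higher. Adamtsl5 was at 5.57 and 5.64, Adamtsl1 at 5.37 in both, and Adamtsl3 at 4.22 and 4.33, below background. The values of Adamtsl2 lay apart and those of the other 4 close together, with a median over the 5 of 0.11.

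**Figure D3:**
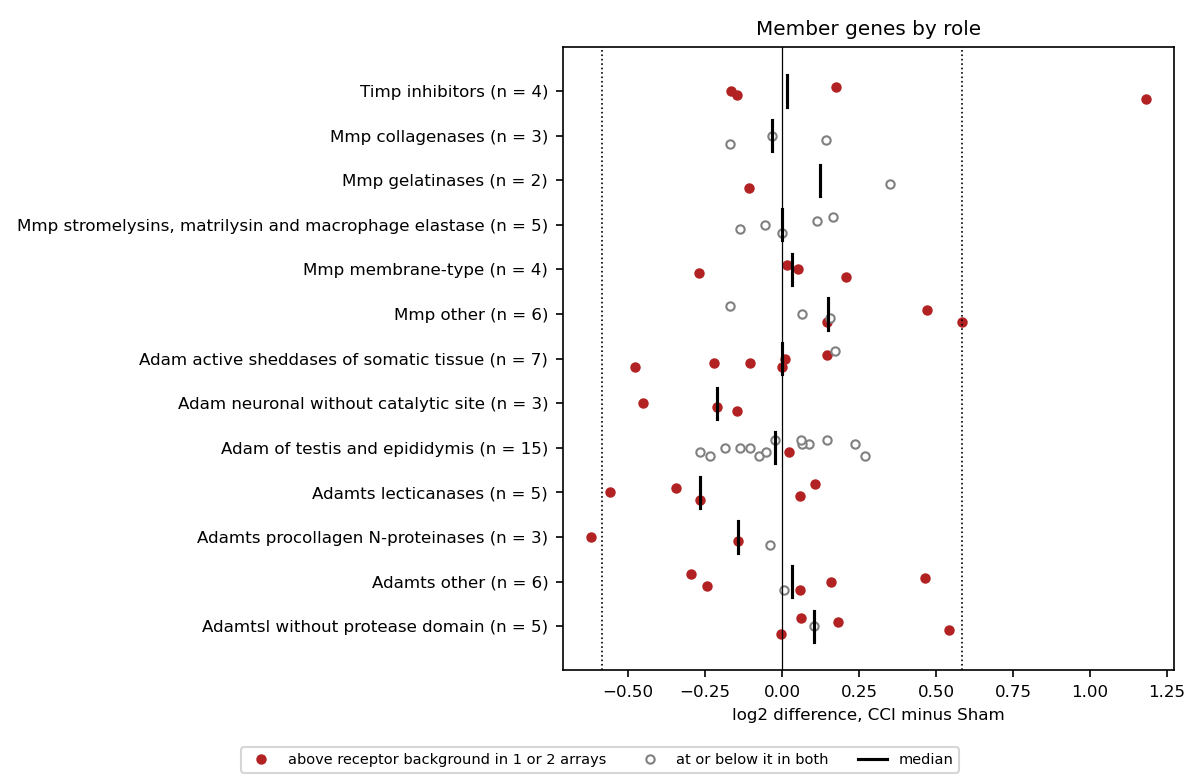
Log2 difference, CCI minus Sham (x axis), of each member by role group (rows); filled points were above the receptor background in 1 or 2 arrays, open points in neither, bars mark medians and dotted lines mark 1.5-fold. Timp1 stands alone on the right, and the neuronal Adam genes lie to the left of 0 throughout.

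Genes around the proteases gave a similar picture of small differences. Their counts by direction stand beside 52.4% lower over all genes, and 7105 of the 13107 genes with a signal were lower. Of 18 genes that activate proenzymes or steer them to the membrane, 16 were measured; 9 were higher in CCI and none passed 1.5-fold in either direction, with a median of 0.02. The proprotein convertase Pcsk6 was at 7.72 in Sham and 7.21 in CCI, 1.43-fold lower. Rhbdf2, an inactive rhomboid that brings Adam17 to the surface of immune cells, was at 4.61 and 4.97, 1.29-fold higher, and its relative Rhbdf1 was at 5.67 and 5.91. The tetraspanin Tspan17, of the group that escorts an Adam protease to the surface, was 1.23-fold higher, at 7.84 and 8.14, whereas the other 3 tetraspanins measured were lower, with differences of -0.23 for Tspan33, -0.08 for Tspan14 and -0.04 for Tspan5. Among 10 measured genes of other inhibitors and clearance, 8 were lower, with a median of -0.14 and none past the threshold. Reck, a membrane-anchored Mmp inhibitor, was at 5.77 and 5.39, 1.30-fold lower, and the proteoglycan Spock1 was at 9.88 and 9.47, 1.33-fold lower.

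Most lecticans and their partners, which include substrates of Adamts4 and Adamts5, had lower values in CCI. Of 12 measured, 10 were lower, at a median of -0.20, but 6 of the 12 differed by less than 1.2-fold. Only 1 passed 1.5-fold: Hapln4, a link protein of perineuronal nets, was at 7.94 in Sham and 7.24 in CCI, 1.62-fold lower. The lecticans themselves differed unequally. Aggrecan (Acan) was 1.32-fold lower, at 5.53 and 5.13, and Vcan was at 7.41 and 7.14. Bcan was at 8.73 and 8.63, and Ncan at 8.19 in both arrays. The hyaluronan synthase Has2 differed by -0.41. Of 18 measured basement membrane and fibrillar matrix genes, 13 were lower, with a median of -0.14. Lamc1, a laminin chain, was at 6.96 and 6.39, 1.48-fold lower, and Fn1 was at 6.95 and 6.55. Col1a1 was higher past 1.5-fold, at 5.53 and 6.13, and Lama5 was 1.36-fold higher, at 4.90 and 5.34. Among 22 measured membrane proteins that Adam enzymes release, 10 were higher and 12 lower, with a median of -0.10. Furthest above Sham were Csf1r (8.82 and 9.60), Cxcl16 (6.18 and 6.75), Trem2 (7.03 and 7.49) and Il6r (5.62 and 6.08). Furthest below were L1cam (8.51 and 8.05), Cx3cl1 (9.34 and 8.90) and Nrg1 (7.17 and 6.73), by about as much as Trem2 and Il6r were above. Csf1r and Trem2 are on the microglia and macrophage marker list too.

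Markers of cell types were set beside these results, and over all genes 47.6% were higher in CCI and 52.4% lower. The microglia and macrophage list had higher values in CCI for 11 of 11 genes, 7 past 1.5-fold, at a median of 0.77. Of 7 astrocyte markers 4 were higher and 3 lower, with a median of 0.08. Gfap, at 11.21 and 11.57, differed most and was 1.28-fold higher. Among the other higher ones, Slc1a3 and Aqp4 had log2 differences of 0.12 and 0.11. Gja1, Vim and Slc1a2 were lower, with differences of -0.15, -0.08 and -0.04, so the list had no common direction. Timp1 is known to be made by reactive astrocytes and by macrophages, and the part of either in its difference was not tested. Of 8 neutrophil markers 6 were at background in both arrays, as were the neutrophil proteases Mmp8 and Mmp9. Past 1.5-fold on that list were Ncf1, which macrophages express too (5.72 and 6.59), and Ngp, at background in both arrays (3.00 and 3.66). The endothelium list had 5 of 6 genes lower (median -0.16), and the fibroblast and meninges list 5 of 7 (median -0.15). Col1a1, which is on the latter list, was higher past 1.5-fold. Col1a1, Col1a2, Col3a1 and Fn1 are on the basement membrane and fibrillar matrix list too, so its count and that of the fibroblast and meninges list are not independent. Cells of both lists are known to make Adamts and Mmp enzymes, and their part in the differences of those genes was not tested. The oligodendrocyte list had 3 of 5 higher (median 0.07). Defining markers of neurons, astrocytes and oligodendrocytes were all above background in both arrays. Of the 11 microglia and macrophage markers 10 were, and Cd68 was below background in Sham, at 4.32, and above it in CCI, at 4.77.

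**Figure D4:**
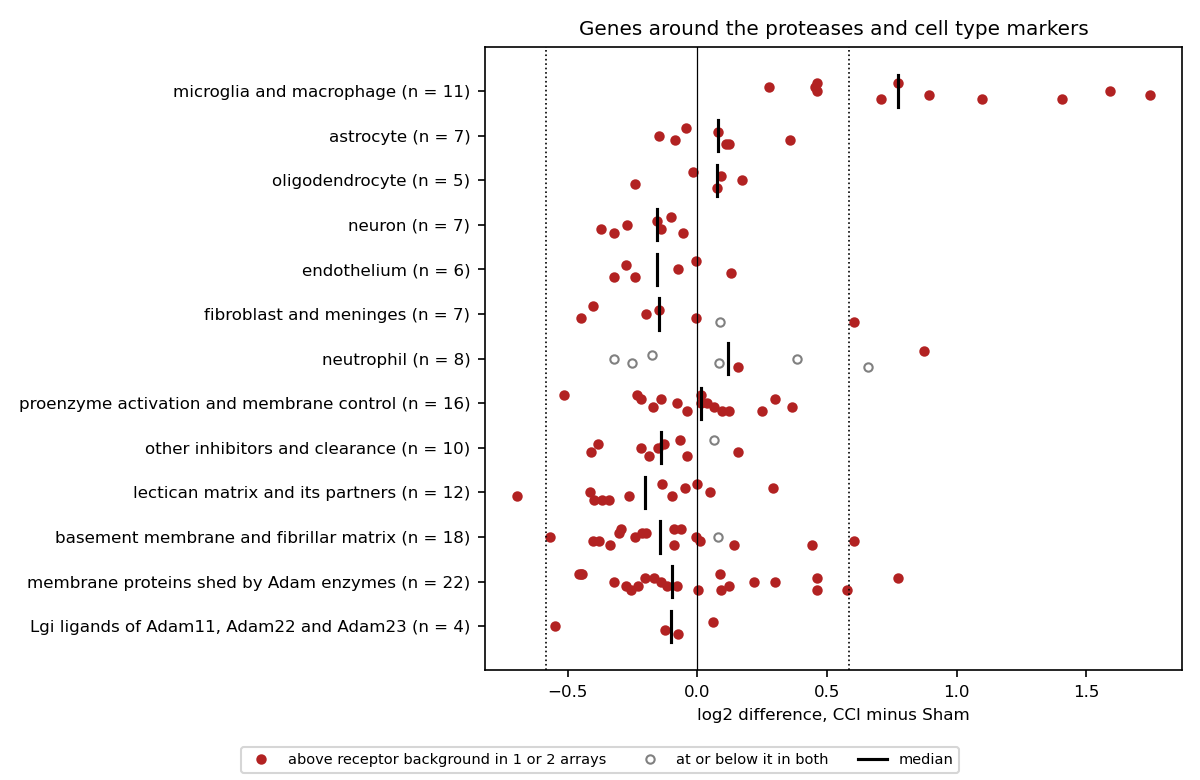
Log2 difference, CCI minus Sham (x axis), of genes that are no members, by list (rows); filled points were above the receptor background in 1 or 2 arrays, open points in neither, bars mark medians and dotted lines mark 1.5-fold. The microglia and macrophage genes lie to the right of 0 throughout, the neuron markers to the left, and the lists around the proteases spread to both sides.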

How the data were processed

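The deposited values are log2 expression that the authors obtained from Affymetrix arrays by RMA, 1 column per group, and they were used as deposited. Of 28879 probe sets, the platform annotation names 1 gene for 18511, several for 575 and none for 9793, and the latter 2 kinds entered no result. For the 286 genes with several probe sets, the one with the highest mean was kept, which left 18171 genes. All 68 members were found by Entrez ID in the RefSeq table (GRCr8). Across probe sets, which are not replicates, Pearson's r between the arrays was 0.992. For the array annotation, the genome build is not given in the sources used here.

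The measure was log2 CCI minus log2 Sham, computed with Python 3.11.15, pandas 2.3.3 and statsmodels 0.14.6. Only the removal of the lowess trend, an alternative named below, was tried on simulated data. A gene above the receptor level in its brighter array alone has a lower bound on its fold, set by that value against the receptor level of the other array. RMA compresses low values and would hide a shift shared by most genes. The members, the gene lists and the background level were chosen with earlier results of these data known. The genes named were all Timp genes, members past 1.5-fold, and the 10 members with the highest level. The 8 above background furthest from Sham in each direction and up to 4 genes of each list were named too. Other members are given to complete their role group. L1cam, Cx3cl1, Nrg1, Ngp, Vcan, Bcan, Ncan, Vim, Slc1a2 and the tetraspanins other than Tspan17 were added once the values had been seen. Alternatives tried were a 2-fold threshold, the mean over probe sets, a lowess trend (span 0.3), a floor at the median level of 5.83, members above background only, and quantile normalization.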

Additional observations from a re-analysis of the deposited data

How the results depend on the processing

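No paired analysis was possible because each group had 1 array, and for the same reason no array could be left out. Only the lowess trend and quantile normalization could move the difference of a single member, since no member had several probe sets and the filters only leave genes out. Timp1 was at 1.24 and 1.21 under these, and 21 other named members moved by at most 0.1 on the log2 scale, with no change of sign. With a floor at the median level, 17 members remained, 6 higher and 11 lower; 1 was higher past 1.5-fold (Timp1) and 0 lower, the median over the members was -0.14, where that over all genes was -0.04, and the median of the Adamts and Adamtsl genes was -0.45, since only Adamts4 and Adamts5 were left. The Mmp median, over Mmp2, Mmp14, Mmp15 and Mmp16 alone, turned to -0.03 there. With quantile normalization, 1 member was higher past the threshold, because Mmp19 no longer met it. With the 2-fold threshold, 1 was higher and 0 lower. The medians of all members and of the Adamts and Adamtsl genes, both close to 0, were below 0 with the lowess trend (-0.01 each) and with quantile normalization (-0.04 each), so their sign depends on the scaling. The number of arrays limits the precision of every value.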
